A study of Homo sapiens with 13 samples.

Results

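The genes described here are 6 receptors through which cells take up lipoproteins and modified lipids: VLDLR, LRP8, LRP1, SCARB1, OLR1 and COLEC12. They were taken by symbol, through their Ensembl gene IDs, from 63241 genes counted in each library, and all 6 had enough counts to be tested. The list was drawn up with results of these same libraries known, so the values and calls of the 6 genes are a description and not independent evidence. Messenger RNA was sequenced from AC16, a human line derived by fusion of ventricular cardiac cells with fibroblasts. There were 3 preconditioning+FCCP libraries, 3 FCCP libraries, 4 preconditioning libraries and 3 control libraries. FCCP carries protons across the inner mitochondrial membrane and so uncouples respiration, and the title and design text describe preconditioning as optogenetic, through a construct named mOpto. All libraries are labelled as wildtype myocytes, and the labels give no dose or duration of FCCP and do not say whether the control and FCCP cells carried mOpto or were exposed to light.

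The LDL receptor family binds apolipoproteins and other ligands at the cell surface and carries them into the cell in clathrin-coated pits. VLDLR takes up triglyceride-rich particles in heart and muscle and, together with LRP8, also known as ApoER2, receives the signal of reelin. LRP1 is a very large member with a wide range of ligands, among them protease-inhibitor complexes and matrix proteins. Scavenger receptors are a mixed group defined by uptake of modified lipoproteins: SCARB1 takes cholesterol esters from HDL, OLR1, known as LOX-1, is a lectin-like receptor of oxidised LDL in vessel walls, and COLEC12 is a membrane collectin with a collagen-like stalk and a sugar-binding head.

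The libraries held 14970803 to 20636229 gene counts. Levels are given as CPM, counts scaled to library size with TMM factors, with the SD over libraries. A gene was called where the adjusted p of edgeR's quasi-likelihood test over all 16756 tested genes was under 0.05, and log2 changes carry a standard error. Nothing in the labels shows that libraries of a group came from separate cultures, so calls rest on a spread among libraries that could be technical. By their share of multiply aligned reads the libraries fell on either side of a gap between 5.22% and 7.13%. FCCP 1 to 3, control 1 and 2 and preconditioning+FCCP 3 lay above it, called the higher-share set, and the other 7 libraries below it, called the lower-share set. Of 12 cardiomyocyte markers 1 reached a group mean of 1 CPM and TNNT2 was listed at 0 in every library, against all 10 fibroblast, 6 of 10 endothelial and 3 of 10 macrophage markers, so the labelled cell type was not borne out by its defining genes. In bulk RNA, fewer cells that express a gene and less of its RNA per cell cannot be told apart.

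VLDLR was higher and LRP1, SCARB1, OLR1 and COLEC12 were lower in preconditioning+FCCP than in FCCP, and LRP8 was higher with preconditioning alone. Preconditioning+FCCP against FCCP called 5 of the 6 members, 1 higher and 4 lower, where 35.7% of all genes were called, 17.9% higher and 17.7% lower. Preconditioning+FCCP against preconditioning called 5, all lower, where 39.4% of all genes were called, 20.2% higher and 19.2% lower. Preconditioning+FCCP against control called 1 higher and 4 lower, where 31.2% of all genes were called, 15.0% higher and 16.2% lower.

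Preconditioning against control called LRP8 alone, higher, where 23.6% of all genes were called, 10.5% higher and 13.0% lower. FCCP against control called 0 of the 6 by edgeR, where 3.52% of all genes were called, 1.60% higher and 1.92% lower. At an unadjusted p under 0.05 that count was 1, where 3448 of the 16756 genes passed. DESeq2 and limma-voom called 0 of the 6, where they called 1331 and 382 of all genes. The difference between the FCCP effects with and without preconditioning called 5 of 6, all negative, where 19.0% of all genes were called, 9.38% positive and 9.60% negative.

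Libraries did not overlap for 5 members in each comparison of preconditioning+FCCP, those called in it. Over all genes the groups were parted in this way for 43.2% against FCCP (21.9% above, 21.3% below), 52.7% against preconditioning (26.6% above, 26.2% below) and 37.7% against control (19.4% above, 18.2% below). In preconditioning against control 2 members were above without overlap, where 36.7% of all genes did not overlap, 19.4% above and 17.3% below. In FCCP against control 1 was above, where 19.3% did not overlap, 8.84% above and 10.4% below. The median log2 change of the 6 members was −1.03 against FCCP, −1.47 against preconditioning and −0.78 against control for preconditioning+FCCP, beside 0.0087, 0.02 and −0.04 over all genes. These comparisons share libraries, and nothing is read from the counts since the members were chosen with these results known.

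VLDLR, the only member that was higher in preconditioning+FCCP than in every other group on average, stood at 29.9, 22.3 and 11.8 CPM in the 3 preconditioning+FCCP libraries. It was at 9.58, 8.16 and 5.32 CPM in FCCP libraries and at 14.3, 13.2, 14.5 and 16.3 CPM in preconditioning libraries. Control libraries had 6.71, 8.197 and 9.76 CPM. The group means were 21.4 ± 9.11 CPM in preconditioning+FCCP (SD, n = 3), 7.69 ± 2.17 CPM in FCCP (SD, n = 3), 14.6 ± 1.25 CPM in preconditioning (SD, n = 4) and 8.22 ± 1.53 CPM in control (SD, n = 3). Every library with preconditioning, with or without FCCP, lay above every library without it. The preconditioning+FCCP and preconditioning ranges overlapped, through preconditioning+FCCP 3, and so did the FCCP and control ranges, so the order of the levels was preconditioning+FCCP and preconditioning above control and FCCP, with neither pair of neighbours parted beyond its spread.

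The fitted log2 change of VLDLR was 1.47 ± 0.31 for preconditioning+FCCP against FCCP, a 2.78-fold rise, and 1.38 ± 0.31 for preconditioning+FCCP against control, a 2.60-fold rise. For preconditioning against control it was 0.83 ± 0.29 and was not called by edgeR, although the libraries did not overlap. DESeq2 called it with 0.82, and edgeR did so with the compared groups alone and without control 3, FCCP 1, FCCP 3, preconditioning+FCCP 1 or preconditioning+FCCP 3. Between preconditioning+FCCP and preconditioning the change was 0.55 ± 0.28, not called, and without preconditioning+FCCP 3 it was 0.81 and called. Within the higher-share set, preconditioning+FCCP 3 at 11.8 CPM was set against 3 FCCP libraries averaging 7.69 CPM, a difference of 0.65 in log2 CPM with no test. In the fit with a term for library set the change against FCCP was 0.88 and was not called. The same fit called VLDLR higher in preconditioning+FCCP than in preconditioning (0.73 ± 0.23) and than in control (1.04 ± 0.27). For preconditioning against control this fit gave 0.31 ± 0.30, not called. Within the lower-share set, where control 3 was the only control library, preconditioning libraries were higher by 0.57 in log2 CPM with no test.

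LRP8 had its highest levels with preconditioning alone. The 4 preconditioning libraries held 86.5, 82.0, 60.3 and 78.8 CPM, and no other library passed 34.2 CPM. In preconditioning+FCCP it was at 34.2, 20.1 and 14.9 CPM, in FCCP at 18.8, 23.0 and 26.4 CPM and in control at 15.9, 12.3 and 26.7 CPM. The means were 23.1 ± 10.01 CPM in preconditioning+FCCP (SD, n = 3), 22.7 ± 3.82 CPM in FCCP (SD, n = 3), 76.9 ± 11.5 CPM in preconditioning (SD, n = 4) and 18.3 ± 7.51 CPM in control (SD, n = 3). Preconditioning thus stood apart from the other groups, whose ranges overlapped one another.

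LRP8 rose 4.20-fold in preconditioning against control (log2 change 2.07 ± 0.30) and fell 3.34-fold in preconditioning+FCCP against preconditioning (−1.74 ± 0.30). Within the lower-share set these differences were 1.51, against control 3 alone, and −1.53 in log2 CPM. FCCP libraries differed from control libraries by 0.31 ± 0.31 and preconditioning+FCCP from FCCP libraries by 0.02 ± 0.30, neither called. The FCCP effect with preconditioning minus that without it was −2.05 ± 0.42 for LRP8, which was called, and 0.65 ± 0.42 for VLDLR, which was not. The paired reelin receptors thus differed in preconditioning+FCCP against preconditioning. LRP8 averaged 23.1 CPM against 76.9 CPM, a called fall. VLDLR averaged 21.4 CPM against 14.6 CPM, with overlapping libraries, not called in the main fit but called higher with a term for library set. In preconditioning against control both lay above without overlap, with LRP8 alone called. Over the 13 libraries the Pearson correlation of their log2 CPM was 0.41.

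The start regions of these genes are shown because VLDLR, LRP8 and COLEC12 had unlike patterns over the groups: by group mean, VLDLR was highest and COLEC12 lowest in preconditioning+FCCP, and LRP8 was highest in preconditioning. RefSeq promoter windows, reaching from 250 bases before to 50 after the start site, were found for 4 of the 6 members, with none for SCARB1 and OLR1. The last bases of the LRP1, LRP8 and COLEC12 windows were found in GENCODE 29 transcripts of these genes and those of the VLDLR window were not, so the start site used for VLDLR was not matched to a transcript here. The windows lie on build GRCh38.p14 at chr9:2621537-2621836 on the plus strand for VLDLR, at chr1:53328021-53328320 on the minus strand for LRP8 and at chr18:500652-500951 on the minus strand for COLEC12, each printed 5′ to 3′ along the gene with matches to the GC box GGGCGG on either strand in capitals, neighbouring matches running together.
VLDLR: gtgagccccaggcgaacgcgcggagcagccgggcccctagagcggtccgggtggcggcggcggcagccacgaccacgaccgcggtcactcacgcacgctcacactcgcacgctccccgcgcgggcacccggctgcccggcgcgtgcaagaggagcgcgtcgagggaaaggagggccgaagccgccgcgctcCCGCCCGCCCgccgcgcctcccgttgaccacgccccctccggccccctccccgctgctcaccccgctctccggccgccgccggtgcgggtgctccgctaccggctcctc
LRP8: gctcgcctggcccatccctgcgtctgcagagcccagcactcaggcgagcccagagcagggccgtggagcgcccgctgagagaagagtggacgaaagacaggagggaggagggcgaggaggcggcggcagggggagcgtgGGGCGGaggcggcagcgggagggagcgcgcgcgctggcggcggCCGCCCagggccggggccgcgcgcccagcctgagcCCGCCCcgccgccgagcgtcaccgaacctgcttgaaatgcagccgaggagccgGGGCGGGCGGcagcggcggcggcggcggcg
COLEC12: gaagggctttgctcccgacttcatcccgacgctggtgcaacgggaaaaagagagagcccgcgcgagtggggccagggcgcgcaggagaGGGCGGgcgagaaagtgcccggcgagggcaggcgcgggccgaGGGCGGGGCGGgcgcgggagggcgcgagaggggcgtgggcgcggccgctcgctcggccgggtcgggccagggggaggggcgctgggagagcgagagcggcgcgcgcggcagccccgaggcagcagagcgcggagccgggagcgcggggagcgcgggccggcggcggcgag
The VLDLR window holds 2 overlapping GC boxes, LRP8 5 and COLEC12 3, and the window of LRP1 on chromosome 12 holds 1. A GC box was found in 44.9% of 34796 windows of this length. Searched on both strands, the sterol regulatory element TCACNCCAC (in 1.12% of all windows), the ATF4 and CHOP element TGATGNAA (3.63%), the hypoxia core ACGTG (21.4%) and the AP-1 site TGANTCA (7.73%) had no match in these 4 windows. The G and C content was 79.0% for VLDLR, 78.3% for LRP8 and 79.7% for COLEC12.

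LRP1, the endocytic receptor that also clears proteases and matrix proteins, was lower in preconditioning+FCCP than in every other group. It stood at 171, 99.8 and 114 CPM in preconditioning+FCCP libraries, and at 253, 298 and 314 CPM in FCCP libraries. Preconditioning libraries had 388, 300.4, 186 and 305 CPM, and control libraries 256, 316 and 254.5 CPM. The highest preconditioning+FCCP library lay below the lowest of all other libraries, preconditioning 3. The other groups overlapped, with means of 288.5 ± 31.6 CPM in FCCP (SD, n = 3), 295 ± 82.7 CPM in preconditioning (SD, n = 4) and 275 ± 35.1 CPM in control (SD, n = 3), while preconditioning+FCCP averaged 128 ± 37.6 CPM (SD, n = 3).

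LRP1 fell 2.25-fold in preconditioning+FCCP against FCCP (log2 change −1.17 ± 0.25), 2.30-fold against preconditioning (−1.20 ± 0.24) and 2.15-fold against control (−1.10 ± 0.25). FCCP alone (0.07 ± 0.25) and preconditioning alone (0.10 ± 0.23) gave no call. The difference between the FCCP effects with and without preconditioning was −1.27 ± 0.34 and was called, a call that ended without preconditioning+FCCP 2 (−1.13). Within the library sets the differences were close to the fitted changes, with no test. In the higher-share set preconditioning+FCCP 3 alone differed from FCCP libraries by −1.33 in log2 CPM. In the lower-share set preconditioning+FCCP 1 and 2 differed from preconditioning libraries by −1.13.

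**Figure D1:**
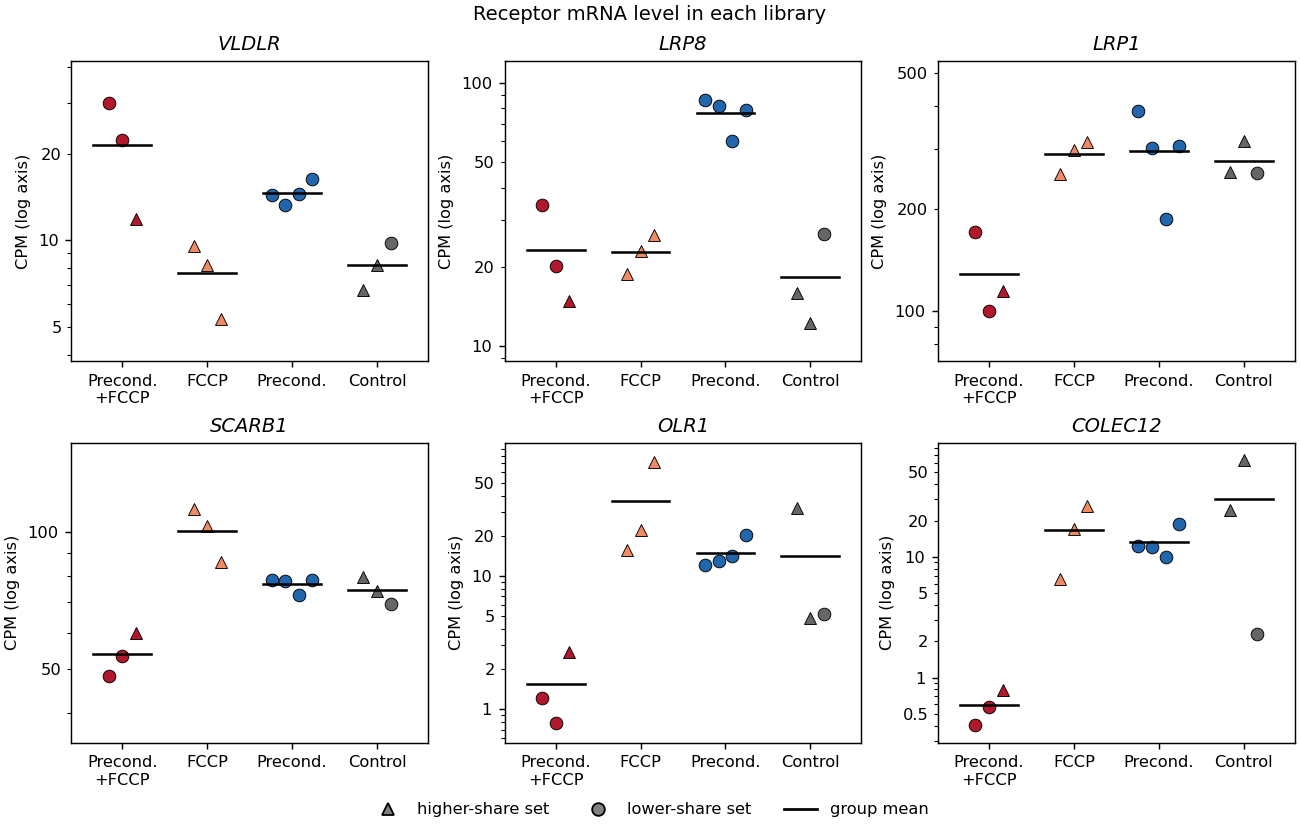
Level of each receptor gene in CPM on a log axis, with a point per library, triangles for the higher-share set, circles for the lower-share set and a line at the group mean. VLDLR is highest in preconditioning+FCCP (21.4 CPM on average), LRP8 in preconditioning (76.9 CPM), and LRP1, SCARB1, OLR1 and COLEC12 are lowest in preconditioning+FCCP.

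SCARB1, the HDL receptor, was lower in preconditioning+FCCP than in every other group. Its levels were 48.1, 53.4 and 59.8 CPM in preconditioning+FCCP and 112, 103 and 85.7 CPM in FCCP. They were 78.5, 77.9, 72.5 and 78.3 CPM in preconditioning and 79.5, 74.1 and 69.3 CPM in control. The order was FCCP, then preconditioning and control, then preconditioning+FCCP: FCCP libraries lay above all others, preconditioning+FCCP libraries below all others, and the preconditioning and control ranges overlapped.

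The SCARB1 mean was 53.8 ± 5.83 CPM in preconditioning+FCCP against 100.2 ± 13.4 CPM in FCCP (SD, n = 3 each), a fall of 1.86-fold (log2 change −0.90 ± 0.16). It fell 1.43-fold against preconditioning (−0.51 ± 0.15), where the mean was 76.8 ± 2.88 CPM (SD, n = 4). Against control at 74.3 ± 5.07 CPM (SD, n = 3) the change was −0.47 ± 0.16 and was called. This call ended with library totals as the only scaling (−0.27), with the compared groups alone (−0.46) and without a filter on low counts. It also ended with a replicate block, a term for replicate number, and without control 1, control 2, preconditioning 2, preconditioning+FCCP 1 or preconditioning+FCCP 2. The rise with FCCP alone, 0.43 ± 0.16, was not called although the libraries did not overlap. The FCCP effect with preconditioning minus that without it was −0.95 ± 0.21 and was called.

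OLR1, the oxidised LDL receptor, fell furthest among the members against FCCP after COLEC12. Its preconditioning+FCCP libraries held 1.22, 0.78 and 2.66 CPM, from 21, 19 and 47 counts. FCCP libraries had 15.5, 22.05 and 71.4 CPM, preconditioning libraries 12.1, 13.0, 14.1 and 20.4 CPM, and control libraries 32.2, 4.86 and 5.13 CPM. All preconditioning+FCCP libraries lay below all others, whereas control spread 6.63-fold, control 1 being high, and FCCP 4.59-fold, FCCP 3 being high. The other groups overlapped, and their order by mean, 36.3 ± 30.5 CPM in FCCP (SD, n = 3), 14.9 ± 3.75 CPM in preconditioning (SD, n = 4) and 14.1 ± 15.7 CPM in control (SD, n = 3), was not parted beyond this spread.

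OLR1 was 23.7-fold lower in preconditioning+FCCP than in FCCP (log2 change −4.57 ± 0.78), 9.73-fold lower than in preconditioning (−3.28 ± 0.73) and 9.21-fold lower than in control (−3.20 ± 0.75). Leaving out each library in turn kept these calls, with ranges of −5.21 to −3.64, −3.94 to −2.96 and −3.87 to −1.74, the smallest fall against control being that without control 1 and against FCCP that without FCCP 3. In the fit with a term for library set OLR1 was still called, at −3.63 against FCCP, −4.02 against preconditioning and −2.61 against control. FCCP alone gave 1.37 ± 0.66, not called, and 2.84, called, without control 1. Preconditioning alone gave 0.08 ± 0.61, not called, with either sign when libraries were left out. The difference between the FCCP effects, −4.65 ± 0.98, was called.

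COLEC12, the membrane collectin, had the lowest level of the 6 genes in preconditioning+FCCP. The 3 libraries held 0.41, 0.58 and 0.79 CPM, from 7, 14 and 14 counts, so counting error weighs on these values. FCCP libraries had 6.52, 17.05 and 26.4 CPM, preconditioning libraries 12.3, 12.05, 9.94 and 18.7 CPM, and control libraries 24.4, 63.0 and 2.315 CPM. The preconditioning+FCCP libraries lay below all others, while control libraries spread 27.2-fold, with control 3 lower than any FCCP or preconditioning library. The means were 0.59 ± 0.19 CPM in preconditioning+FCCP (SD, n = 3), 16.7 ± 9.97 CPM in FCCP (SD, n = 3), 13.25 ± 3.79 CPM in preconditioning (SD, n = 4) and 29.9 ± 30.7 CPM in control (SD, n = 3).

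COLEC12 was 27.9-fold lower in preconditioning+FCCP than in FCCP (log2 change −4.80 ± 0.88) and 22.2-fold lower than in preconditioning (−4.47 ± 0.86). Against control the fold was 50.05 (−5.64 ± 0.90), and without each library in turn it ranged from −6.23 to −4.52 in log2. In the fit with a term for library set COLEC12 was still called, at −3.01 against FCCP, −5.63 against preconditioning and −4.13 against control, each over 1.5 times from the fold above. Within the lower-share set preconditioning+FCCP 1 and 2 averaged 0.49 CPM against 2.315 CPM in control 3, a difference of −2.02 in log2 CPM, and within the higher-share set preconditioning+FCCP 3 differed from control 1 and 2 by −5.44. FCCP alone (−0.84 ± 0.69) and preconditioning alone (−1.17 ± 0.64) gave no call, and without control 3 preconditioning was called lower (−1.73). In the fit with a term for library set the change with preconditioning was 1.498 and not called. The difference between the FCCP effects, −3.63 ± 1.08, was called. This call ended without control 1, FCCP 2, FCCP 3, preconditioning 4, preconditioning+FCCP 1 or preconditioning+FCCP 2, by limma-voom and with a replicate block.

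The summed level of the fibroblast markers was also lower in preconditioning+FCCP, a sum in which the most abundant markers weigh most. All 10 were detected, and their summed level was 995 to 1148 CPM in preconditioning+FCCP, 4370 to 7659 CPM in FCCP, 5694 to 6500 CPM in preconditioning and 3628 to 7550 CPM in control. Of 10 endothelial markers 6 reached 1 CPM, and the sum was 42.1 to 59.4 CPM in preconditioning+FCCP, 67.65 to 114.5 CPM in FCCP, 62.1 to 75.8 CPM in preconditioning and 36.1 to 71.8 CPM in control, with PECAM1, CDH5, KDR and ERG below 1 CPM in each group. Macrophage markers, 3 of 10 at 1 CPM and C1QA and C1QB at 0 counts throughout, summed to 2.18 to 6.61 CPM in preconditioning+FCCP, 7.24 to 10.9 CPM in FCCP, 3.64 to 5.09 CPM in preconditioning and 3.70 to 8.31 CPM in control. All libraries were of the AC16 line, so these sums do not show that separate cell types were present. Their relation to the lower LRP1, SCARB1, OLR1 and COLEC12 levels was not tested.

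Levels of different genes were compared per kilobase of exon, with lengths from GENCODE 29. In preconditioning+FCCP, SCARB1 (6.95 ± 0.75 CPM per kb) and LRP1 (6.16 ± 1.80) were the highest, VLDLR (2.29 ± 0.98) and LRP8 (2.25 ± 0.98) lay together, and OLR1 (0.51 ± 0.32) and COLEC12 (0.080 ± 0.026) came last (SD, n = 3 each). In FCCP, LRP1 (13.8 ± 1.52 CPM per kb), SCARB1 (12.9 ± 1.73) and OLR1 (11.9 ± 9.99) lay within each other's spread, above COLEC12 (2.27 ± 1.36), LRP8 (2.22 ± 0.37) and VLDLR (0.82 ± 0.23; SD, n = 3 each). In preconditioning the order was LRP1 (14.15 ± 3.97 CPM per kb), SCARB1 (9.92 ± 0.37), LRP8 (7.495 ± 1.12), OLR1 (4.87 ± 1.23), COLEC12 (1.81 ± 0.52) and VLDLR (1.56 ± 0.13; SD, n = 4). In control it was LRP1 (13.2 ± 1.69 CPM per kb), SCARB1 (9.60 ± 0.66), OLR1 (4.60 ± 5.14), COLEC12 (4.07 ± 4.18), LRP8 (1.78 ± 0.73) and VLDLR (0.88 ± 0.16; SD, n = 3 each). VLDLR, the lowest of the 6 genes per kilobase in the FCCP, preconditioning and control means, was thus above OLR1 and COLEC12 on this scale in preconditioning+FCCP.

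**Figure D2:**
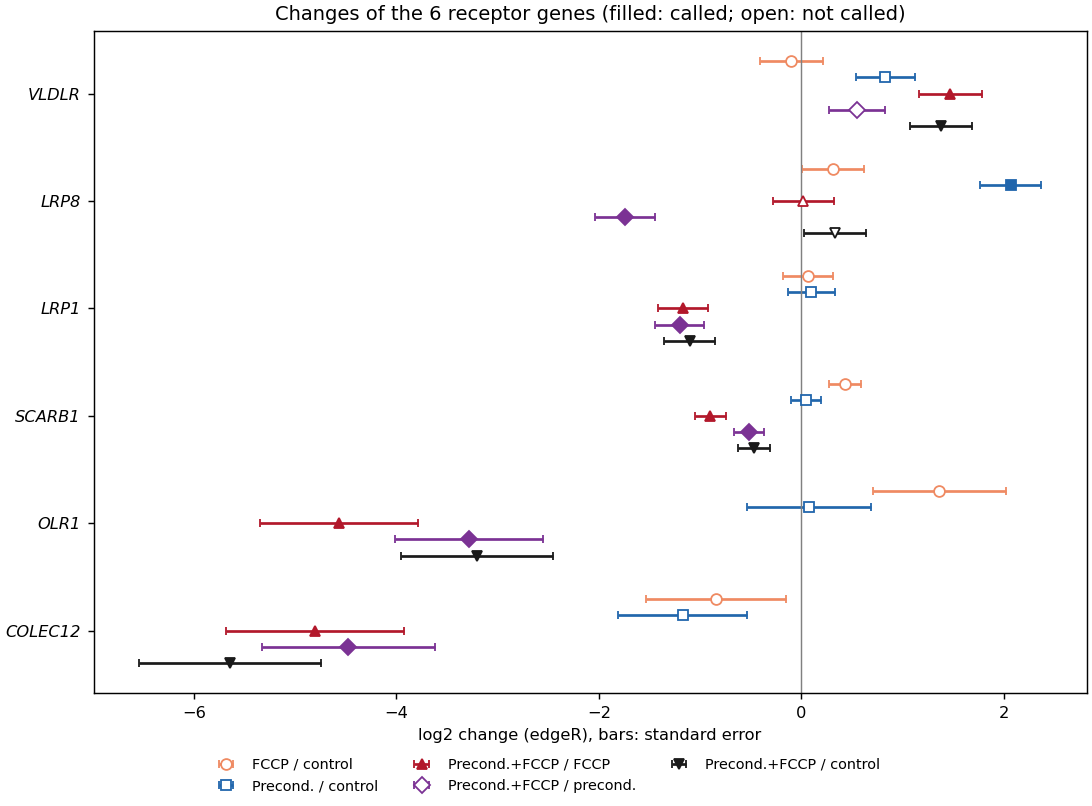
Log2 change of each receptor gene in 5 comparisons, with bars of 1 standard error, filled symbols for called changes and open symbols for the others. OLR1 and COLEC12 lie at −3.20 or lower in every comparison of preconditioning+FCCP, VLDLR at 1.38 and 1.47 against control and FCCP, and LRP8 at 2.07 for preconditioning against control.

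The patterns most like each member over the 13 libraries were found among 14123 tested genes with a mean of at least 1 CPM, by Pearson correlation of log2 CPM, where the points share library and depth. For VLDLR these were HINT3, PLEKHM3 and PRKACB, a catalytic subunit of protein kinase A (each r = 0.97). For LRP8 they were NOMO1 (0.98), TMTC1 (0.97) and CALU (0.97), a calcium-binding protein of the endoplasmic reticulum, NOMO1 being uncertain since it has near-identical copies. COLEC12 was followed by PAMR1 (0.98), GNG4 (0.97) and COL3A1 (0.97), the fibrillar collagen gene of type III, which ran at 43.3 to 59.3 CPM in preconditioning+FCCP and 295 to 673 CPM in FCCP. OLR1 was followed by PNPLA6 (0.97), UCP2 (0.95), a mitochondrial carrier, and KIRREL3 (0.95). UCP2 stood at 2.63 to 5.88 CPM in preconditioning+FCCP and 23.6 to 78.9 CPM in FCCP. For LRP1 the genes were the fibroblast protease gene FAP, SYT15B, which has a near-identical copy (both 0.92), and RNF207 (0.91). For SCARB1 they were GALNS (0.96), a lysosomal sulfatase gene, GATB (0.94) and SPARC (0.93), a matrix protein gene. COL3A1 and FAP are also in the list of fibroblast markers above.

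**Figure D3:**
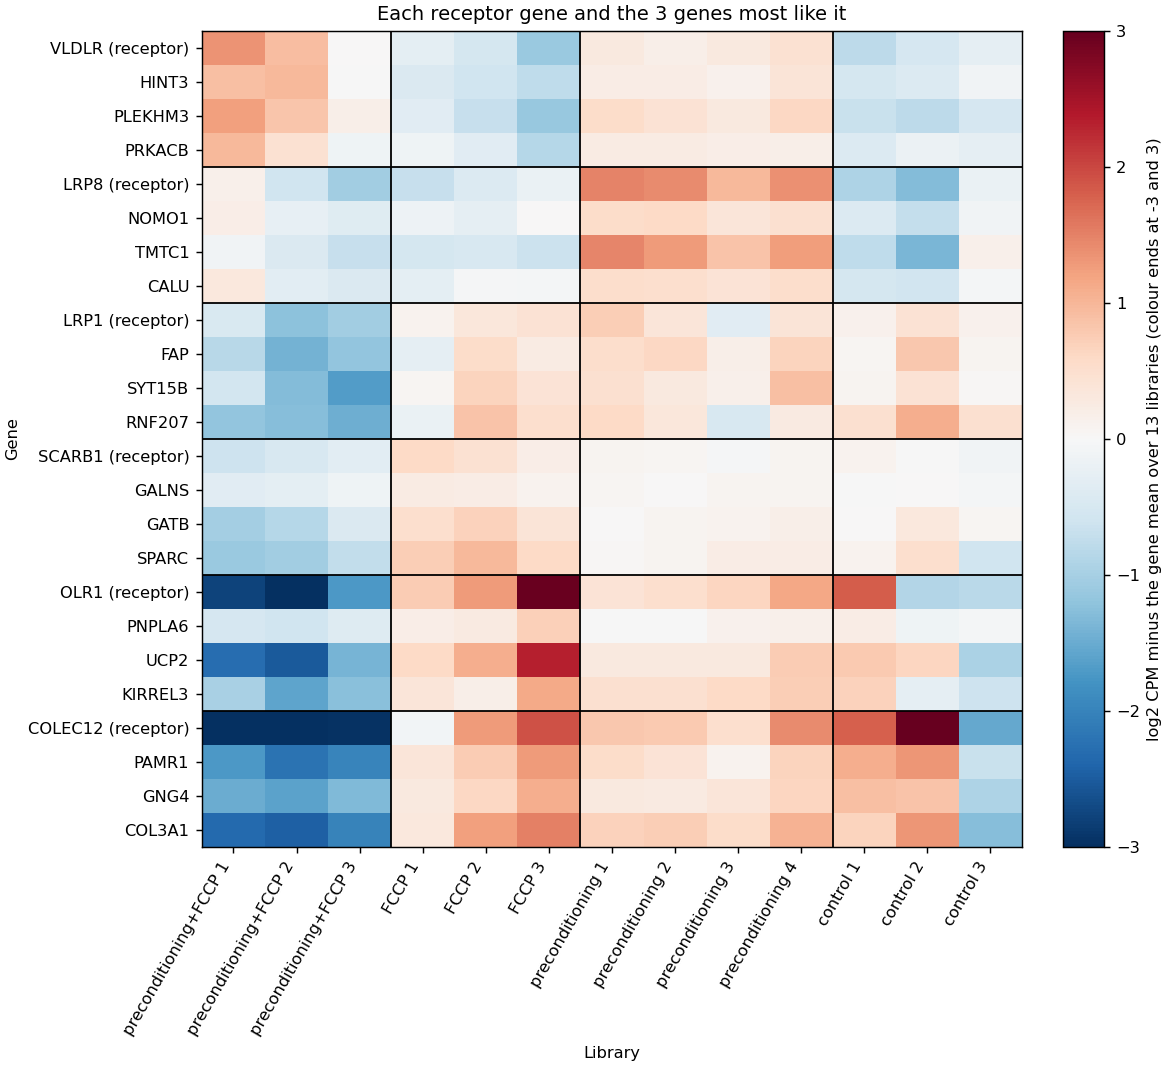
Log2 CPM minus the mean over 13 libraries for each receptor gene and the 3 genes most like it, with a column per library and colour ending at −3 and 3. OLR1 and COLEC12 and the genes below them are lowest in the preconditioning+FCCP libraries, and LRP8 and its 3 genes are highest in the preconditioning libraries.

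The other genes of the LDL receptor family, 13 in the list and 10 of them tested, were described next. Counts of called genes in this and the later lists stand beside the shares of all genes called. These were 35.7% for preconditioning+FCCP against FCCP, 39.4% against preconditioning and 31.2% against control. They were 23.6% for preconditioning against control, 3.52% for FCCP against control and 19.0% for the difference between the FCCP effects. Nothing is read from the list counts. In preconditioning against control 5 of 10 were called, all higher (median log2 change 0.68, against −0.02 over all genes). Among them were LRP10 (1.43 ± 0.24), the sorting receptor SORL1 (1.503 ± 0.305), the Wnt co-receptor LRP6 (0.97 ± 0.25) and LRP12 (0.50 ± 0.17). For LRP10 the adjusted p by edgeR was 0.00244, and its mean was 225 CPM in preconditioning libraries (n = 4) against 83.7 CPM in control libraries (n = 3), without overlap. The LRP6 call ended without control 1 or control 2, and the calls of LRP6 and SORL1 both ended in the fit with a term for library set.

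In preconditioning+FCCP against FCCP 2 of the 10 family genes rose and 4 fell, among them LDLRAD3 (−1.21 ± 0.20) and SORL1 (−0.98 ± 0.32) lower and LRP12 (0.62 ± 0.18) higher. The calls of LRP12 and SORL1 ended without FCCP 3 or preconditioning+FCCP 2 among others, while that of LDLRAD3 held without each library. In the fit with a term for library set LRP12 and SORL1 were not called. Against preconditioning 5 were called, all lower, with SORL1 (−1.69 ± 0.31), LDLRAD3 (−1.10 ± 0.19) and LRP5 (−1.04 ± 0.23) holding without each library. The difference between the FCCP effects was negative and called for 5 of 10, SORL1 (−2.48 ± 0.44) and LDLRAD3 (−1.34 ± 0.27) among them. Against control, preconditioning+FCCP raised 3 of 10, among them LRP11 (1.38 ± 0.39) and LRP12 (0.62 ± 0.18), and lowered 2, LDLRAD3 (−0.97 ± 0.20) and LRP5 (−0.78 ± 0.24), and of these only the LDLRAD3 call held without each library.

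Of 17 other scavenger receptors 10 were tested. The long-chain fatty acid receptor CD36 was among those not tested, with 4 counts in all preconditioning+FCCP libraries together, 10 in FCCP, 27 in preconditioning and 7 in control. Preconditioning against control raised 4 and lowered 2: the macrophage receptor MSR1 (1.401 ± 0.360) and MEGF10 (1.90 ± 0.50), a receptor for dying cells, were higher, and AGER (−1.48 ± 0.34), the receptor of glycated proteins, and SCARF2 (−0.67 ± 0.16) were lower. The calls of MSR1, MEGF10 and AGER ended without control 1 and in the fit with a term for library set. MEGF10 averaged 0.34 CPM in control, from 17 counts in all. In preconditioning+FCCP against FCCP 2 were called, both lower, the class A receptor SCARA3 (−0.77 ± 0.20) and the galectin gene LGALS3 (−1.49 ± 0.39). In the fit with a term for library set LGALS3 was at −0.63 and was not called, while the SCARA3 call held. Against preconditioning, SCARF2 (1.22 ± 0.16) and AGER (1.15 ± 0.34) rose and SCARA3 (−0.83 ± 0.19) and MEGF10 (−1.58 ± 0.48) fell, and the AGER and MEGF10 calls ended without preconditioning+FCCP 3. The median of the 10 changes against FCCP was −0.19, beside −4.57 for OLR1 and −4.80 for COLEC12.

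Of 10 collectins and C-type lectins of the cluster that holds OLR1, 2 were tested. CLEC2B fell in preconditioning+FCCP against FCCP (−1.54 ± 0.35) and against control (−1.67 ± 0.35). In preconditioning against control CLEC2D (−1.74 ± 0.38) and CLEC2B (−1.35 ± 0.32) fell, the CLEC2B call ending without control 1. In the fit with a term for library set CLEC2B against FCCP (−0.79) and both genes with preconditioning (CLEC2D −1.37, CLEC2B −0.41) were not called. Against preconditioning, CLEC2D rose in preconditioning+FCCP (1.19 ± 0.38), a call that ended without preconditioning 2, preconditioning 3 or preconditioning+FCCP 2.

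**Figure D4:**
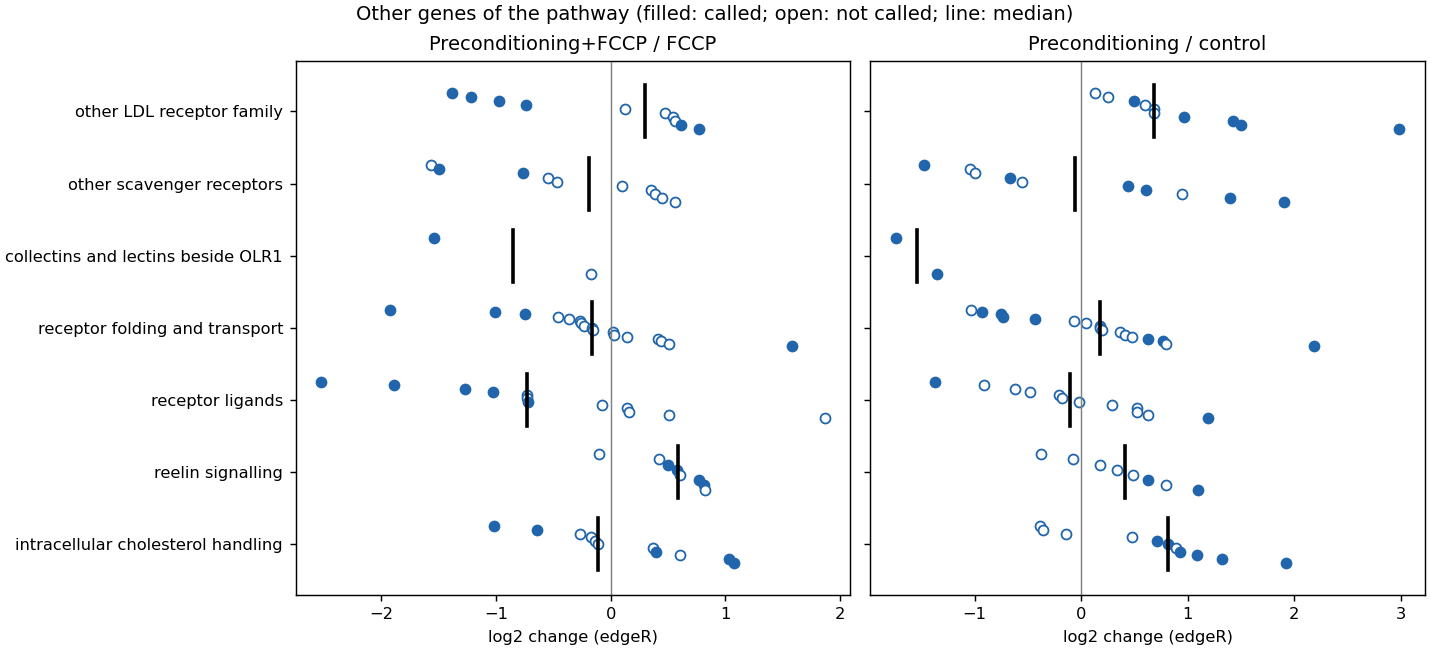
Log2 change of every tested gene of 7 pathway lists for preconditioning+FCCP against FCCP (left) and preconditioning against control (right), filled where called, with a line at the list median. The other LDL receptor genes had a median of 0.30 on the left and 0.68 on the right, and the receptor ligands −0.73 and −0.10.

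All 17 genes of receptor folding, sorting and breakdown were tested. SNX17, which returns LRP1 and its relatives from endosomes to the surface, fell in preconditioning+FCCP against FCCP (−1.01 ± 0.17), against preconditioning (−1.03 ± 0.17) and against control (−0.67 ± 0.17), the last call ending with library totals as the only scaling. It was at 73.8, 65.6 and 67.7 CPM in preconditioning+FCCP libraries, below the 132, 138 and 147 CPM of FCCP libraries. CCDC93, a subunit of the CCC complex, which works with SNX17 in recycling, rose against FCCP (1.58 ± 0.28) and control (1.18 ± 0.28). The adaptor DAB2 fell against preconditioning (−0.93 ± 0.22) and FCCP (−0.75 ± 0.24), the second call ending without FCCP 3, preconditioning+FCCP 1 or preconditioning+FCCP 2. That DAB2 call also ended in the fit with a term for library set. In this list the counts were 1 higher and 3 lower against FCCP, 2 and 4 against preconditioning, and 2 and 2 against control.

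In FCCP against control 2 genes of the transport list were called, both higher, among them MYLIP (1.42 ± 0.31), a ubiquitin ligase that acts on VLDLR and LRP8, whose call ended on leaving out control 2, FCCP 2 or FCCP 3. MYLIP was also higher in preconditioning+FCCP than in control (1.17 ± 0.31), a call that ended without preconditioning+FCCP 3. Preconditioning alone raised 3 and lowered 4, with FURIN (0.77 ± 0.21) and GULP1 (0.62 ± 0.16) higher and COMMD1 (−0.73 ± 0.20) lower. The calls of FURIN, GULP1 and COMMD1 ended without control 1 and in the fit with a term for library set.

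Of 16 ligand genes 12 were tested. In preconditioning+FCCP against FCCP 5 were called, all lower, with PLAT (−1.27 ± 0.27), the tissue plasminogen activator cleared by LRP1, SELENOP (−1.89 ± 0.50), LIPC (−2.53 ± 0.73) and MDK (−0.72 ± 0.22), and the PLAT call held without each library. Those of SELENOP, LIPC and MDK ended in the fit with a term for library set. In preconditioning+FCCP, SELENOP averaged 0.55 CPM from 33 counts in all and LIPC 0.48 CPM from 28, so counting error weighs on both. Against preconditioning 2 rose and 5 fell. CLU, the apolipoprotein clusterin that VLDLR and LRP8 bind, rose (1.70 ± 0.19), and PLAT (−2.01 ± 0.27), the thrombospondin THBS1 (−1.996 ± 0.330) and the perlecan gene HSPG2 (−1.47 ± 0.28) fell, all held without each library. CLU stood at 153.5, 129 and 103 CPM in preconditioning+FCCP libraries, above the 37.4 to 44.0 CPM of preconditioning libraries and the 37.8 to 52.6 CPM of control libraries. CLU also rose with FCCP alone (1.01 ± 0.20), a call that ended without control 2. HSPG2 rose with preconditioning alone (1.19 ± 0.28), a call that ended without control 1 or control 2 and in the fit with a term for library set. RELN, the reelin gene, was at 1.85 ± 1.24 CPM in preconditioning+FCCP, 0.50 ± 0.59 CPM in FCCP, 1.81 ± 0.64 CPM in preconditioning (n = 4) and 1.26 ± 1.57 CPM in control (SD, n = 3 in the other groups).

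Of 9 genes of reelin signalling behind VLDLR and LRP8, 8 were tested, and the adaptor gene DAB1 had 0 counts in all libraries. In preconditioning+FCCP against FCCP 4 were called, all higher: CRK (0.82 ± 0.17), PAFAH1B1 (0.77 ± 0.18), CRKL (0.58 ± 0.21) and the kinase gene FYN (0.50 ± 0.19). The calls of CRK and PAFAH1B1, which encodes LIS1, held without each library, and that of CRKL ended on leaving out any 1 of 11 libraries and that of FYN any 1 of 10. Preconditioning alone raised RAPGEF1 (1.10 ± 0.26) and PAFAH1B1 (0.63 ± 0.17). Both calls ended without control 1 and in the fit with a term for library set.

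Genes that handle cholesterol after uptake, 11 tested of 11, had 6 calls in preconditioning against control, all higher (median 0.81), where 23.6% of all genes were called. ACAT2 (1.925 ± 0.270), an acetyl-CoA acetyltransferase at the start of sterol synthesis rather than of uptake, the sterol carrier STARD4 (1.32 ± 0.26), the oxysterol-binding protein OSBP (1.09 ± 0.24) and the lysosomal acid lipase LIPA (0.81 ± 0.19) led, and their calls held without each library, although those of STARD4 and OSBP ended in the fit with a term for library set. In preconditioning+FCCP against FCCP 3 rose and 2 fell. OSBP (1.03 ± 0.25) and the lysosomal cholesterol exporter NPC1 (1.08 ± 0.34) rose, and ACAT2 (−1.01 ± 0.27) and LIPA (−0.65 ± 0.20) fell, the NPC1 and LIPA calls ending without FCCP 2, FCCP 3, preconditioning+FCCP 1 or preconditioning+FCCP 2 and the ACAT2 call without FCCP 3. The OSBP, NPC1 and LIPA calls against FCCP ended in the fit with a term for library set (0.61 for OSBP). Against preconditioning, LIPA (−1.04 ± 0.19) and ACAT2 (−1.43 ± 0.26) fell and NPC2 (1.02 ± 0.19) and STARD3 (0.83 ± 0.14) rose, all held without each library. ACAT2 was also called with FCCP alone (1.51 ± 0.28), a call that ended with the compared groups alone.

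Set against control, preconditioning+FCCP gave further calls that held without each library. The ligand genes PLAT (−2.03 ± 0.28), THBS1 (−1.71 ± 0.34) and TFPI (−1.64 ± 0.33), an inhibitor of coagulation, fell, and CLU (1.51 ± 0.21), OSBP (1.15 ± 0.25) and STARD3 (0.69 ± 0.15) rose. For TFPI the libraries overlapped, with preconditioning+FCCP 3 at 153.0 CPM above control 3 at 151.7 CPM. The difference between the FCCP effects with and without preconditioning was called for several genes around the receptors. In the scavenger receptor list it was negative for SCARA3 (−1.38 ± 0.28) and positive for SCARF2 (1.12 ± 0.24). SNX17 (−1.37 ± 0.24) and the engulfment adaptor GULP1 (−0.99 ± 0.24) were negative in the transport list, and ACAT2 (−2.94 ± 0.38), STARD4 (−1.58 ± 0.37) and LIPA (−1.46 ± 0.28) in the cholesterol list. These calls held without each library, while those of AGER, MEGF10, PLAT and LIPC ended on leaving out any 1 of 7 to 10 libraries.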

How the data were processed

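The authors deposited raw counts of reads for each Ensembl gene ID; the submitters' processing notes name HISAT2, HTSeq and the build hg19, with no annotation release given in the sources used. Per the labels' protocols, libraries were made from poly-T selected mRNA, and both directional and non-directional second strands are described. Without a known strand setting, reads of VLDLR, LRP1, LRP8 and COLEC12 and of antisense genes that overlap them in GENCODE 29 may not be told apart. Reads in rows without a gene were not used: 2.13% to 5.20% of reads lay outside genes, 11.0% to 12.4% overlapped several genes and 3.16% to 11.5% aligned to several places.

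Symbols were matched for 62666 of 63241 IDs. Counts of all 13 libraries were fitted together with edgeR 4.0.16 (R 4.3.3), with its default filter, TMM factors, a term per group and Benjamini-Hochberg adjustment over 16756 genes, and standard errors were taken as the size of the log2 change over the root of the F statistic. The functions were checked on simulated counts. Within-set differences are of mean log2 CPM with a prior count of 2. The members, the lists and the alternatives, among them DESeq2 1.42.0 and limma-voom (limma 3.58.1), were chosen with earlier results of these data known. Up to 4 called genes per list and comparison with the smallest adjusted p were named; CD36, DAB1, RELN and LRP12 with preconditioning, outside this rule, were added after their values were seen. Some genes that the rule would name are not reported here. Within-set values were added after seeing the data. No pair of libraries in a group agreed within sampling noise (lowest chi-square per degree of freedom 3.12).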

Additional observations from a re-analysis of the deposited data

Results flagged for a closer look

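The FCCP effect with preconditioning differed from that without it, by the test of this difference in edgeR, for LRP1 (−1.27), LRP8 (−2.05), SCARB1 (−0.95), OLR1 (−4.65) and COLEC12 (−3.63) on the log2 scale, each lower with preconditioning. SCARB1 in preconditioning libraries held 1 library apart from the others within a narrow range. Preconditioning 3 was at 72.5 CPM and the other libraries at 77.9 to 78.5 CPM, so that the gap made up 0.905 of the range. The highest library was only 1.08 times the lowest. The 6 genes were tested in this group of 4 libraries, and chance gives a gap large enough to be flagged in about 1 in 20 groups.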

How the results depend on the processing

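Of 21 called changes of the 6 receptor genes, 16 kept their call under every alternative run, 18 did so without each library in turn, and none changed sign. Exceptions were VLDLR in preconditioning+FCCP against FCCP in the fit with a term for library set (0.88), SCARB1 against preconditioning without a filter (−0.52), and the calls of SCARB1 against control and of LRP1 and COLEC12 for the difference of FCCP effects given above. The number of members called was 1 rather than 0 for FCCP against control without a filter and without control 3, FCCP 1 and preconditioning+FCCP 3 together, and 0 to 1 without each library. Over all genes, 1078 of 36432 tested were called without a filter and 3113 of 17202 without those 3 libraries. For preconditioning against control the number of members called was 3, rather than 1, without a filter and without those 3 libraries. It was 2 by DESeq2 and with the compared groups alone, and 1 to 3 without each library. Over all genes, 4060 of 36432 tested were called without a filter and 8405 of 17202 without those 3 libraries. DESeq2 called 4697 of 16756 genes, and edgeR with the compared groups alone called 4747 of 15562. For the difference of FCCP effects the number of members called was 3, rather than 5, at an adjusted p under 0.01, where 1201 of 16756 genes passed. It was 3 to 5 without each library. The cause of these differences between settings was not tested.

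Changes that were not called took the other sign in 21 of 344 cases. VLDLR with FCCP was 0.17 in the fit with a term for library set and −0.31 to 0.10 without each library. LRP1 ranged from −0.010 to 0.17 with FCCP and −0.060 to 0.27 with preconditioning, COLEC12 with FCCP from −1.42 to 0.29, SCARB1 with preconditioning from −0.0075 to 0.092 and OLR1 from −0.33 to 1.57. Without control 3, FCCP 1 and preconditioning+FCCP 3 the last pair were −0.011 and −0.33, and COLEC12 with preconditioning was 1.498 in the fit with a term for library set. LRP8 in preconditioning+FCCP against FCCP was −0.061 by limma-voom, −0.63 in the fit with a term for library set and −0.38 to 0.23 without each library, and against control −0.081 to 0.67.

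Over all genes the number called ranged from 17 to 3113 for FCCP against control and 459 to 8405 for preconditioning against control. It ranged from 3629 to 9276 for preconditioning+FCCP against FCCP and 1897 to 6421 for the difference of FCCP effects. The fit with a term for library set gave the 459, where the main fit called 3950, and the 3629, where the main fit called 5976. Every preconditioning library lay in the lower-share set, with control 3 as the only control library there. Of 111 calls of pathway genes that met the naming rule 60 held without each library and 49 under every alternative, with no change of sign. The shared replicate numbers did not pair the libraries: correlations of deviations from the group means ran from −0.20 to 0.16 over 18 same-numbered pairs. With a replicate block, in which preconditioning 4 had a level of its own, FCCP against control called 53 genes and LRP8 in preconditioning+FCCP against FCCP was −0.0064. COLEC12 in preconditioning+FCCP rested on 35 counts in 3 libraries, which limits its fold.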
